A study of Homo sapiens with 16 samples.

Results

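RNA of A549, a cell line from a human adenocarcinoma of the lung that grows as an epithelium, was compared between 96 h with TGF-beta, an inducer of the epithelial to mesenchymal transition, and 0 h, the start of the course. The comparison used 4 of the 16 libraries of the series: the columns of 0 h and 96 h in the tables of replicate 1 and replicate 2, so 2 libraries at each time, paired by replicate number. The other 12 libraries (6, 12, 24, 36, 48 and 72 h) entered the gene filter and the estimates of the spread and of the mean difference between replicates. They also served for a test of the replicate difference at 96 h, for a comparison with 72 h and, where stated, for levels. All libraries came from the same cell line with no other genotype or agent named, and the form and dose of TGF-beta were not given in the sources used here. No untreated culture of 96 h is among these samples, so the effect of TGF-beta and that of time in culture cannot be told apart. No label states that the replicates were separate cultures, so p-values measure the spread between these samples only, which may be technical.

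TGF-beta ligands are secreted in a latent form, released by integrins and proteases, and bind a pair of receptor kinases that phosphorylate SMAD2 and SMAD3; these enter the nucleus with SMAD4 and act on target genes, some of which encode inhibitors of the pathway. In epithelial cells prolonged exposure is known to replace E-cadherin junctions with N-cadherin, fibronectin and a contractile cytoskeleton, and to slow division. A549 cells carry an inactive KEAP1 and so keep NRF2, the factor that drives oxidant defence genes, active at rest.

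Levels below are TPM, the share of a library’s transcripts scaled to a fixed total, after 6 abundant small RNAs were dropped and each library was rescaled to a total of 1000000 TPM; 2 values are given in the order replicate 1 and replicate 2. Changes are differences of log2(TPM + 1), which understates the change of genes at low TPM, and TPM keep no read totals, so the depth behind a value is unknown. The labelled cell type was checked against its markers. The keratin and adhesion genes of simple epithelium summed to 10142 and 12139 TPM in the 2 libraries of 0 h. Most of that was keratin, with KRT18 reaching 5667 TPM, while the adhesion genes CDH1 and EPCAM were far lower. Of 14 alveolar markers 4 reached 1 TPM in any of the 4 libraries, with ABCA3, a lipid transporter of lamellar bodies, the highest at 24.2 TPM. Markers of other cell types were low. Of 12 fibroblast genes 7 reached 1 TPM, their sum was 5.16 to 9.05 TPM at 0 h, then 14.8 to 20.2 TPM at 96 h, and DPT was listed at 0. Of 12 leukocyte genes 4 reached 1 TPM, with sums of 14.1 to 25.9 TPM at 0 h, then 16.5 to 17.9 TPM at 96 h, and CD3D was listed at 0. Endothelial genes summed to at most 5.32 TPM and erythroid genes to less than 1 TPM. Of the nerve and muscle genes TUBB3, a tubulin, reached 243 TPM, and CKM, MYOD1, MYOG and STMN2 were listed at 0.

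The transition at 96 h joined a rise of secreted matrix, protease and growth factor-like genes with a fall of epithelial, secretory and oxidant defence genes. Of 21216 genes tested with limma over all 16 libraries with the replicate number as a block, 502 were called higher (2.37%) and 648 lower (3.05%) at an adjusted p below 0.05. A change of at least 1 log2 unit in both replicates, without a test, was a shared rise in 377 genes (1.78%) and a shared fall in 512 (2.41%); 314 of those rises and 377 of those falls were also called. In bulk RNA, fewer cells of a kind and less RNA per cell cannot be told apart. The 0 h and 96 h libraries did not overlap in 8322 genes (39.2%). With 2 libraries at each time many genes part in this way without any effect, so this share is no measure of change. Of 229 genes chosen by rule or after their values were seen 165 were called, and 51 of these were called in each of 13 other fits that tested them. Calls lost or gained in those fits are named paragraph by paragraph; a call lost without the block is not named again for the fit that has no block and another scaling. Without the block 199 genes were called higher and 228 lower, all of them among the calls above, and with only the 4 libraries, which leave 1 residual degree of freedom, none was.

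The small RNAs took 51.8% of the deposited TPM in both 0 h libraries, 50.6% in 96 h replicate 1 and 62.1% in 96 h replicate 2. The median change of all genes tested was 0.08 in replicate 1 and -0.26 in replicate 2, so levels in replicate 2 at 96 h are to be read against that shift. The split of calls moved with the scaling: 255 higher and 562 lower with TPM as deposited (median changes 0.10 and -0.48), and 660 higher and 586 lower with median-of-ratios scaling (0.06 and -0.09).

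The largest shared rises were in IGFL genes, secreted insulin growth factor-like proteins, and in genes that build or cut the matrix. IGFL2 (chromosome 19, 46143106 to 46161299 on GRCh38) went from 1.87 and 1.20 TPM to 172 and 119 TPM (log2 change 5.84, SE 0.36, adjusted p = 1.5e-05 by limma), with no overlap between the libraries of the 2 times. Its neighbours IGFL1 and IGFL3 went from 1.76 and 2.16 TPM to 76.8 and 271 TPM and from 1.29 and 0.187 TPM to 62.9 and 65.2 TPM. At 96 h IGFL1 was higher in replicate 2 and IGFL2 in replicate 1. COL22A1, a collagen of tissue junctions, rose from 0.581 and 0.207 TPM to 153 and 40.3 TPM (log2 change 5.85, SE 0.34, adjusted p = 1.5e-05 by limma). MMP2, a gelatinase, rose from 8.82 and 0.871 TPM to 363 and 111 TPM, and its 0 h libraries already differed. In the plot of the largest shared changes both 96 h libraries of each gene lie on the same side of both 0 h libraries. These genes were chosen for large changes in both replicates, so that separation comes with the choice and is no further result.

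**Figure D1:**
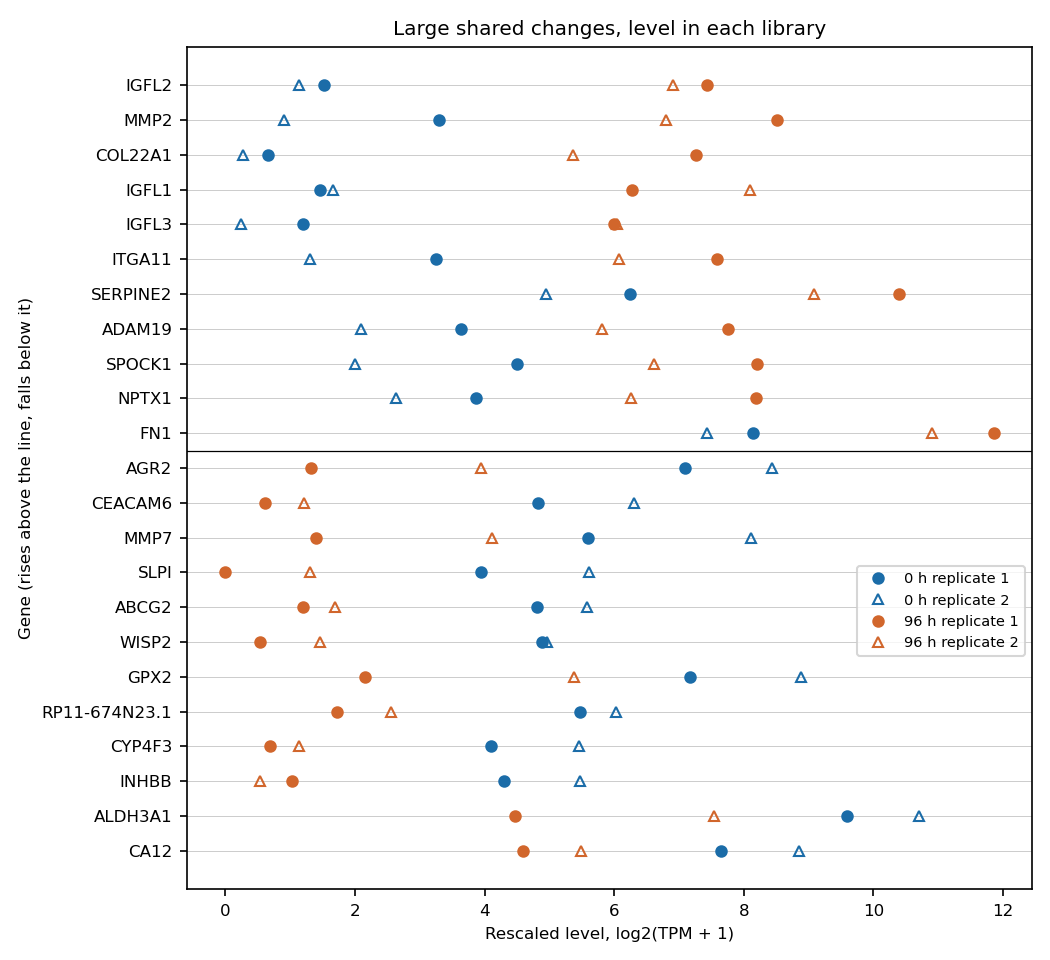
Level of called genes with large shared rises (above the line) and large shared falls (below it), as log2(TPM + 1) on the horizontal axis, with filled circles for replicate 1 and open triangles for replicate 2, blue at 0 h and orange at 96 h. In every row the 2 orange symbols lie on one side of the 2 blue ones, which comes with the choice of genes. All falls shown except INHBB are higher in replicate 2 than in replicate 1 at both times. All rises shown except IGFL1 and IGFL3 are higher in replicate 1 at both times.

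Other large rises joined cell adhesion and protease control. SERPINE2, a secreted inhibitor of thrombin and plasminogen activators, rose from 74.7 and 29.8 TPM to 1348 and 544 TPM, with nearly equal changes of 4.16 and 4.14 in the replicates. FN1, fibronectin, rose from 280.3 and 173 TPM to 3704 and 1919.9 TPM (log2 change 3.59, SE 0.24, adjusted p = 1.5e-05 by limma). ITGA11, a collagen-binding integrin subunit, rose from 8.47 and 1.47 TPM to 191 and 66.5 TPM. ADAM19, a membrane protease, SPOCK1, a matrix proteoglycan, and NPTX1, a secreted pentraxin, rose with log2 changes of 3.91, 4.16 and 3.98 (SE 0.27, 0.58 and 0.36). SPOCK1 (adjusted p = 0.0591 by limma) was not called without the replicate block.

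The largest shared falls were in genes of a secretory epithelium and of detoxification. AGR2, a protein disulfide isomerase of mucus-secreting cells, fell from 136 and 344 TPM to 1.497 and 14.4 TPM (log2 change -5.13, SE 0.46, adjusted p = 1.0e-04 by limma). CEACAM6, a surface glycoprotein of epithelia, fell from 27.3 and 78.3 TPM to 0.526 and 1.32 TPM, and SLPI, an epithelial protease inhibitor, fell from 14.5 and 48.0 TPM to 0 and 1.48 TPM. The gene of the matrix protease matrilysin, MMP7, fell from 47.2 and 276 TPM to 1.64 and 16.3 TPM, so the metalloprotease genes did not move one way. ABCG2, a drug efflux pump, fell from 27.1 and 47.1 TPM to 1.29 and 2.22 TPM. GPX2, a glutathione peroxidase of epithelia, and ALDH3A1, an aldehyde dehydrogenase, fell from 143 and 470.1 TPM to 3.44 and 40.7 TPM and from 774 and 1672 TPM to 21.0 and 186 TPM; both kept a level in replicate 2 well above that in replicate 1. WISP2, a secreted CCN protein, CA12, a carbonic anhydrase, CYP4F3, a fatty acid hydroxylase, INHBB, an activin subunit, and the transcript RP11-674N23.1 fell with log2 changes of -3.93, -3.22, -3.87, -4.10 and -3.60. MMP7 (adjusted p = 0.358 by limma) and GPX2 (0.128) were not called without the replicate block, and ALDH3A1 (0.0525) without it and with median-of-ratios scaling. SLPI (0.102) was not called without 0 h replicate 2, and SLPI (0.0608) without 96 h replicate 1.

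Among 17 measured markers of the transition, 8 were called higher and 1 lower, with median changes of 1.35 and 0.79 in replicates 1 and 2. The cadherins moved in opposite directions: CDH1, E-cadherin, fell from 30.1 and 57.1 TPM to 0.890 and 8.55 TPM (log2 change -3.32, SE 0.34, adjusted p = 0.000193 by limma), and CDH2, N-cadherin, rose from 76.4 and 34.2 TPM to 286 and 136 TPM (log2 change 1.93, SE 0.16, adjusted p = 7.3e-05 by limma). VIM, the mesenchymal intermediate filament, was already at 1148 and 1026 TPM at 0 h and rose to 2257 and 1781 TPM. The transcription factors SNAI1 and SNAI2, repressors of E-cadherin, were both called. SNAI1 rose from 1.85 and 0.643 TPM to 8.70 and 1.87 TPM, and SNAI2 rose from 2.08 and 0.104 TPM to 12.4 and 2.82 TPM. SOX4, a factor induced by TGF-beta, rose from 68.6 and 43.4 TPM to 197 and 209 TPM, and HMGA2 and TCF4, chosen after their values were seen, rose from 7.49 and 11.8 TPM to 82.2 and 31.9 TPM and from 12.2 and 8.91 TPM to 44.4 and 20.7 TPM. No call was made for ZEB1 (28.5 and 27.2 TPM at 0 h against 76.9 and 18.8 TPM after 96 h), ZEB2 (3.32 and 1.41 TPM at 0 h against 5.14 and 3.80 TPM after 96 h) or TWIST1 (3.86 and 3.32 TPM at 0 h against 2.23 and 4.48 TPM after 96 h); in replicate 2 ZEB1 at 96 h lay below its 0 h level. ZEB1 (adjusted p = 0.0074 by limma) was called without 96 h replicate 2. CDH1 (adjusted p = 0.0661 by limma), CDH2 (0.0911), VIM (0.0767), SNAI1 (0.395), SNAI2 (0.38) and TCF4 (0.162) were not called without the replicate block. VIM (0.072) and SNAI1 (0.121) were not called with TPM as deposited, and SNAI1 (0.0627) with no filter beyond a value above 0. VIM (0.112), SNAI1 (0.193), SNAI2 (0.0899), HMGA2 (0.0754) and TCF4 (0.0509) were not called without 0 h replicate 1, VIM (0.126), SNAI1 (0.15) and SNAI2 (0.106) without 0 h replicate 2, and VIM (0.0897), SNAI1 (0.182) and SNAI2 (0.0904) without 96 h replicate 1.

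The TGF-beta pathway itself changed at several levels. Of 14 measured ligands, latency proteins, receptors and SMADs, 5 were called higher and 1 lower. The ligand TGFB1 rose from 24.7 and 18.6 TPM to 89.2 and 45.7 TPM, while TGFB2 (chosen after its values were seen) measured 95.7 and 86.4 TPM at 0 h against 73.3 and 73.2 TPM after 96 h and was not called. The latent TGF-beta binding proteins LTBP2 and LTBP3 rose from 16.9 and 8.27 TPM to 78.9 and 29.5 TPM and from 41.7 and 31.1 TPM to 199.7 and 72.8 TPM, and LTBP1 rose with a log2 change of 1.14 (SE 0.22). SMAD3, which carries the signal to the nucleus, fell from 122 and 162 TPM to 38.9 and 27.4 TPM (log2 change -2.07, SE 0.24, adjusted p = 0.00037 by limma), while SMAD2, chosen after its values were seen, rose with a log2 change of 0.50 (SE 0.13). The receptors, also named after their values were seen, had no call, and TGFBR1 differed between replicates at 96 h (64.4 and 41.2 TPM at 0 h against 226 and 55.3 TPM after 96 h). TGFBR1 (adjusted p = 0.0365 by limma) was called with median-of-ratios scaling, and TGFBR1 (0.0252) with centring by transcript length. TGFBR1 (0.000459) was called without 96 h replicate 2. TGFB1 (adjusted p = 0.274 by limma), LTBP2 (0.153), LTBP3 (0.212) and SMAD2 (0.184) were not called without the replicate block. LTBP1 (0.102) and SMAD2 (0.439) were not called with TPM as deposited, SMAD2 (0.0659) without the 36 h and 48 h libraries numbered 2, and SMAD2 (0.107) with centring by transcript length. TGFB1 (0.0696), LTBP3 (0.0851), LTBP1 (0.13) and SMAD2 (0.212) were not called without 0 h replicate 1, SMAD2 (0.223) without 0 h replicate 2, LTBP3 (0.059), LTBP1 (0.0726) and SMAD2 (0.0716) without 96 h replicate 1, and SMAD2 (0.135) without 96 h replicate 2.

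BMP, activin and GDF genes held some of the largest changes of secreted signals, with 6 of 19 called higher and 2 lower. GREM1, an extracellular BMP antagonist, rose from 5.23 and 4.64 TPM to 82.8 and 55.0 TPM, and the BMP ligands BMP2 and BMP6 rose from 1.58 and 0.580 TPM to 13.0 and 5.57 TPM and from 6.16 and 6.18 TPM to 36.1 and 32.5 TPM. Activin subunits moved apart: INHBB fell from 18.7 and 43.2 TPM to 1.03 and 0.448 TPM, whereas INHBA rose from 0.187 and 0.0207 TPM to 79.4 and 2.72 TPM, with a level in replicate 1 at 96 h far above that in replicate 2. GDF15, a stress-induced family member, fell from 80.0 and 94.9 TPM to 6.96 and 11.4 TPM (log2 change -3.15, SE 0.39, adjusted p = 0.000641 by limma). BMP4 had no call, and its replicates parted: 20.8 and 28.8 TPM at 0 h against 2.23 and 30.6 TPM after 96 h. BMP4 (adjusted p = 0.0032 by limma) was called without 96 h replicate 2. INHBA (adjusted p = 0.119 by limma) was not called without the replicate block. INHBA (0.0562) was not called with no filter beyond a value above 0. INHBA (0.16) was not called without 0 h replicate 1, BMP6 (0.0753) without 0 h replicate 2, and BMP6 (0.0518) and INHBA (0.0857) without 96 h replicate 1.

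Of 29 measured genes of the interstitial matrix 13 were called higher and none lower. A further count, without a test, is that 11 had a shared rise, with medians of 1.07 and 0.71. THBS1, thrombospondin, an activator of latent TGF-beta, rose from 122 and 58.4 TPM to 1545 and 427 TPM (log2 change 3.25, SE 0.30, adjusted p = 0.000105 by limma), and TNFAIP6, a hyaluronan-binding protein, rose from 1.25 and 0.539 TPM to 40.7 and 9.50 TPM. The proteoglycan VCAN and the hyaluronan synthase HAS2, chosen after their values were seen, rose from 101 and 139 TPM to 809.5 and 546 TPM and from 5.002 and 6.05 TPM to 39.1 and 32.2 TPM. SPARC, a collagen-binding protein chosen likewise, rose from 14.4 and 2.05 TPM to 101 and 72.9 TPM. COL1A1, the type I collagen chain, also chosen after its values were seen, measured 8.63 and 2.74 TPM at 0 h against 94.1 and 5.70 TPM after 96 h, with most of the change in replicate 1. Of 21 genes that modify collagen 2 were called, both higher: P4HA3, a prolyl hydroxylase subunit (29.9 and 10.1 TPM at 0 h against 164 and 106 TPM after 96 h), and BMP1, a procollagen protease (37.8 and 26.8 TPM at 0 h against 97.8 and 62.7 TPM after 96 h). SPARC (adjusted p = 0.0513 by limma), COL1A1 (0.539) and BMP1 (0.0733) were not called without the replicate block. COL1A1 (0.0896) was not called with TPM as deposited, COL1A1 (0.0996) with no filter beyond a value above 0, and COL1A1 (0.0607) without the 36 h and 48 h libraries numbered 2. COL1A1 (0.246) was not called without 0 h replicate 1, TNFAIP6 (0.0544) and COL1A1 (0.103) without 0 h replicate 2, and COL1A1 (0.159) without 96 h replicate 1.

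Basement membrane and integrin genes moved selectively. Of 20 basement membrane genes 4 were called higher and 1 lower (medians 0.21 and -0.07, and 0.34 and -0.56 with TPM as deposited). NID1, the linker protein nidogen, rose from 3.53 and 1.78 TPM to 28.2 and 20.0 TPM. LAMA3, a laminin chain of epithelia, fell from 16.9 and 24.4 TPM to 2.91 and 5.78 TPM. The type IV collagen chain COL4A1 rose from 69.2 and 29.6 TPM to 438 and 98.8 TPM. Of 18 integrin subunits 6 were called higher and 1 lower. ITGA2, a collagen receptor chain, rose from 19.9 and 16.7 TPM to 131 and 39.1 TPM. ITGB3, a chain of vitronectin receptors, rose from 3.28 and 1.60 TPM to 12.1 and 6.73 TPM. ITGB6, whose integrin activates latent TGF-beta, rose from 14.2 and 7.03 TPM to 72.0 and 28.1 TPM. The one called lower was ITGB5, also a vitronectin receptor chain, which fell from 198 and 217 TPM to 107 and 155 TPM. LAMA3 (adjusted p = 0.108 by limma), COL4A1 (0.0833), ITGA2 (0.0611), ITGB3 (0.259) and ITGB5 (0.143) were not called without the replicate block. ITGB5 (0.133) was not called with median-of-ratios scaling, ITGB5 (0.0506) with a pseudocount of 0.1, ITGA2 (0.0659) and ITGB5 (0.0848) with no filter beyond a value above 0, ITGB5 (0.0862) without the 36 h and 48 h libraries numbered 2, and ITGB5 (0.146) with centring by transcript length. ITGA2 (0.14) and ITGB5 (0.229) were not called without 0 h replicate 1, COL4A1 (0.0946), ITGA2 (0.116), ITGB6 (0.0786) and ITGB5 (0.223) without 0 h replicate 2, and ITGA2 (0.134) and ITGB5 (0.219) without 96 h replicate 1.

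Proteases and their inhibitors went both ways, with 10 of 29 called higher and 5 lower. The collagenase MMP1 was at or near 0 at 0 h (0 and 0.0622 TPM) and at 7.50 and 9.36 TPM at 96 h. The urokinase PLAU and its receptor PLAUR, chosen after their values were seen, rose from 79.3 and 71.9 TPM to 805 and 261 TPM and from 31.3 and 35.5 TPM to 164 and 111 TPM. MMP24, a membrane-type metalloprotease, and ADAM15 fell from 53.0 and 55.0 TPM to 10.98 and 25.1 TPM and from 44.5 and 56.6 TPM to 23.8 and 37.0 TPM. Promoters were read for the AP-1 letters TGANTCA, a site of FOS and JUN factors, in the 250 bases before each start in the RefSeq table (GRCh38.p14, both strands, which for this palindrome are the same letters). The letters occurred in 6.6% of 27305 promoters, in 4 of 18 matched genes of this list, in 7.16% of matched genes called higher and in 5.39% of those called lower. They are shown, in capitals, for a matrix gene and a protease receptor that rose and for a protease that fell, since the same letters stand before genes of both directions:
TNFAIP6 (chr2:151357403-151357529, plus strand): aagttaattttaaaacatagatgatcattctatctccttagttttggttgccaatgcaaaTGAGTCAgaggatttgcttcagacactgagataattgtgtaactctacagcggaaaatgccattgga
PLAUR (chr19:43670289-43670415, minus strand): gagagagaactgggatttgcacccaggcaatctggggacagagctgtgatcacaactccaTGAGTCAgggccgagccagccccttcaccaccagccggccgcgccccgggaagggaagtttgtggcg
MMP7 (chr11:102530748-102530874, minus strand): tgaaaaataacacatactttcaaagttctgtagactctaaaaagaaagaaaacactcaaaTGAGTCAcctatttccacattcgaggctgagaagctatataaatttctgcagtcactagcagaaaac
A match is only a match of letters. ADAM15 (adjusted p = 0.219 by limma) was not called without the replicate block. ADAM15 (0.0671) was not called with centring by transcript length. MMP24 (0.11) and ADAM15 (0.108) were not called without 0 h replicate 1, MMP1 (0.068), MMP24 (0.0791) and ADAM15 (0.104) without 0 h replicate 2, and MMP24 (0.0929) and ADAM15 (0.0811) without 96 h replicate 1.

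Contractile genes showed a mixed picture. Of 24 measured, 3 were called higher and 2 lower, and the median was 0.56 in replicate 1 and -0.31 in replicate 2. TAGLN, transgelin of smooth muscle, rose from 80.2 and 9.31 TPM to 697 and 208 TPM (log2 change 3.72, SE 0.49, adjusted p = 0.00101 by limma), and PDLIM7 and ZYX, adaptors of stress fibres and focal adhesions, rose with log2 changes of 1.57 and 1.03. MYLK, the myosin light chain kinase, fell from 40.0 and 76.5 TPM to 5.89 and 10.4 TPM, as did CAV2, a caveolin, from 178 and 193 TPM to 103 and 113 TPM. TPM1, a tropomyosin chosen after its values were seen, had 1479 and 799 TPM at 0 h against 4243 and 900.4 TPM after 96 h, with no call: the high level stood in replicate 1 only. TPM1 (adjusted p = 0.0097 by limma) was called without 96 h replicate 2. TAGLN (adjusted p = 0.051 by limma), PDLIM7 (0.233) and ZYX (0.755) were not called without the replicate block, and CAV2 (0.0822) without it and with median-of-ratios scaling. ZYX (0.202) was not called with TPM as deposited, and ZYX (0.0643) with no filter beyond a value above 0. ZYX (0.224) and CAV2 (0.0582) were not called without 0 h replicate 1, ZYX (0.0873) and CAV2 (0.0574) without 0 h replicate 2, and ZYX (0.133) without 96 h replicate 1.

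Of 43 measured genes of epithelial junctions, polarity and keratins 14 were called lower and none higher (medians -0.49 and -0.80). ELF3, an epithelial transcription factor, fell from 193 and 252 TPM to 12.1 and 58.3 TPM. The desmosome plakophilin PKP2 fell from 7.97 and 9.97 TPM to 1.58 and 2.93 TPM, and the polarity gene LLGL2 fell from 55.9 and 60.9 TPM to 7.48 and 27.5 TPM. The keratins KRT8 and KRT18 have processed copies that may share reads, and fell from 3354 and 4067 TPM to 1459.7 and 2145 TPM and from 4244 and 5667 TPM to 1968 and 2595 TPM. KRT19 (chromosome 17, 41523617 to 41528308 on GRCh38) fell from 105 and 104 TPM to 5.79 and 49.3 TPM, a change of -3.96 and -1.06 in the replicates. EPCAM, an epithelial adhesion molecule, had no call (8.95 and 9.37 TPM at 0 h against 2.67 and 6.62 TPM after 96 h), nor had the desmoplakin gene DSP or the claudin CLDN4, chosen after their values were seen (55.5 and 48.6 TPM at 0 h against 127 and 47.1 TPM after 96 h, and 3.01 and 3.57 TPM at 0 h against 12.6 and 4.19 TPM after 96 h). DSP (adjusted p = 0.0206 by limma) was called with centring by transcript length. DSP (0.021) was called without 96 h replicate 2. CDH1 (adjusted p = 0.0661 by limma), ELF3 (0.113), KRT8 (0.147), KRT18 (0.145) and KRT19 (0.0697) were not called without the replicate block, and LLGL2 (0.0733) without it and with median-of-ratios scaling. KRT8 (0.0965) and KRT18 (0.0733) were not called with median-of-ratios scaling, KRT8 (0.057) and KRT19 (0.0996) with no filter beyond a value above 0, KRT19 (0.0607) without the 36 h and 48 h libraries numbered 2, and KRT8 (0.0603) with centring by transcript length. ELF3 (0.105), PKP2 (0.0655), LLGL2 (0.0705), KRT8 (0.143), KRT18 (0.0914) and KRT19 (0.207) were not called without 0 h replicate 1, PKP2 (0.0647), KRT8 (0.111), KRT18 (0.1) and KRT19 (0.141) without 0 h replicate 2, and ELF3 (0.0798), PKP2 (0.0503), KRT8 (0.101), KRT18 (0.0553) and KRT19 (0.0582) without 96 h replicate 1.

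Among genes of secretory epithelium and of liver-type secretion, calls were all lower. Of 13 secretory genes 6 were called lower and none higher. Besides AGR2 and SLPI these included SPDEF, a transcription factor of goblet cells, which fell from 5.98 and 13.1 TPM to 0.344 and 1.21 TPM. LCN2, an iron-siderophore binding lipocalin, fell from 5.75 and 38.3 TPM to 0 and 1.16 TPM. The mucins MUC5AC and MUC5B were chosen after their values were seen. MUC5AC fell from 3.63 and 29.7 TPM to 0.0202 and 0.132 TPM, and MUC5B fell from 2.32 and 7.50 TPM to 0.283 and 0.211 TPM. Of 21 acute-phase and liver-type genes 11 were called lower and none higher (medians -1.42 and -1.46). FGA, FGB and FGG encode the chains of fibrinogen. FGA fell from 15.3 and 58.4 TPM to 0.303 and 6.15 TPM. FGB fell from 11 and 44.4 TPM to 1.17 and 1.74 TPM, and FGG fell from 11.02 and 52.7 TPM to 0.688 and 8.18 TPM. APOH, an apolipoprotein, fell from 8.55 and 23.9 TPM to 0.384 and 4.77 TPM. At 0 h every one of these named genes was higher in replicate 2 than in replicate 1. LCN2 (adjusted p = 0.22 by limma), FGA (0.117), FGG (0.262) and APOH (0.317) were not called without the replicate block. APOH (0.0534) was not called without 0 h replicate 1, LCN2 (0.128), MUC5AC (0.0515) and MUC5B (0.0841) without 0 h replicate 2, and LCN2 (0.0707) without 96 h replicate 2.

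Targets of NRF2 made up the list with the largest share of calls: 29 of 39 were called lower and none higher, 22 had a shared fall, and the medians were -1.60 and -1.28, beside 3.05% of all genes called lower. Together their TPM summed to 36207 and 37993 at 0 h and 8937 and 16486 at 96 h. CYP4F11, a fatty acid hydroxylase, fell from 14.4 and 15.7 TPM to 0.627 and 1.08 TPM (log2 change -3.13, SE 0.30, adjusted p = 0.000138 by limma), and NQO1, a quinone reductase, fell from 2483 and 2372 TPM to 820.0 and 1360.5 TPM. AKR1B10, FTL, TXNRD1, GCLC, AKR1C2 and SLC7A11 were chosen after their values were seen. Among them was AKR1B10, an aldo-keto reductase, which fell from 2988 and 3343 TPM to 229 and 876 TPM. FTL, the ferritin light chain, whose processed copies may share reads, fell from 10597 and 11677 TPM to 1999 and 4644 TPM. TXNRD1, a thioredoxin reductase, fell from 1364 and 1435 TPM to 356 and 513 TPM. GCLC, the catalytic subunit of glutathione synthesis, fell from 187 and 188 TPM to 48.3 and 37.4 TPM. The near-identical AKR1C genes may share reads; AKR1C2 was at 3134 and 3377 TPM and then 149 and 921 TPM. HMOX1, heme oxygenase, and the cystine transporter SLC7A11 were not called (146 and 131 TPM at 0 h against 114 and 64.8 TPM after 96 h, and 119 and 114 TPM at 0 h against 121 and 27.1 TPM after 96 h). SLC7A11 (adjusted p = 0.00627 by limma) was called without 96 h replicate 1. NQO1 (adjusted p = 0.0503 by limma) and AKR1C2 (0.0895) were not called without the replicate block, and FTL (0.1) without it and with median-of-ratios scaling. NQO1 (0.107) and AKR1C2 (0.0765) were not called without 0 h replicate 1, and NQO1 (0.0687) and AKR1C2 (0.0503) without 96 h replicate 1.

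The antioxidant response element, the site of NRF2, has the core letters TGACNNNGC. In the 250 bases before the start they were found, on either strand (GCNNNGTCA on the other), in 11% of 27305 RefSeq promoters (GRCh38.p14), in 8 of 29 matched NRF2 targets (27.6%) and in 6 of the 21 matched targets called lower (28.6%); among all matched genes called lower the share was 11.9%. Of those 6, the stretches of GPX2, GCLM, TXNRD1 and ME1 are given with the core in capitals, to show that the element stands at different distances and in both orientations before genes that fell:
GPX2 (chr14:64942799-64942927, minus strand): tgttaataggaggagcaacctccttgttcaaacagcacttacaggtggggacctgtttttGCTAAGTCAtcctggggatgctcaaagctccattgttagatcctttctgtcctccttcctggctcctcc
GCLM (chr1:93909431-93909524, minus strand): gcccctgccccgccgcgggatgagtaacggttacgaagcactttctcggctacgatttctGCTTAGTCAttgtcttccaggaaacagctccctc
TXNRD1 (chr12:104215620-104215748, plus strand): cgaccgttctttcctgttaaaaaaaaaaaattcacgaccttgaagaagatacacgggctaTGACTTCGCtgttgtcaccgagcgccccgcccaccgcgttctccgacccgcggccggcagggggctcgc
ME1 (chr6:83431120-83431248, minus strand): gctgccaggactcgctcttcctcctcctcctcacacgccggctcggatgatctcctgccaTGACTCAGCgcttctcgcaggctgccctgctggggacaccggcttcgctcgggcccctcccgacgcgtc
Their levels went from 143 and 470.1 TPM to 3.44 and 40.7 TPM for GPX2, from 99.2 and 99.6 TPM to 34.5 and 25.9 TPM for GCLM, the modifier subunit of glutathione synthesis, and from 98.0 and 85.4 TPM to 60.1 and 47.2 TPM for ME1, malic enzyme, the latter pair chosen after their values were seen. GPX2 (adjusted p = 0.128 by limma) and ME1 (0.112) were not called without the replicate block. ME1 (0.0776) was not called without 0 h replicate 2.

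Among metabolic genes most calls were lower, beside 3.05% of all genes called lower, and the falls were larger in replicate 1. Aldehyde dehydrogenases had medians of -0.62 and -0.19, beside 0.08 and -0.26 for all genes tested. Their summed level was 10422 and 10643 TPM at 0 h, then 7076 and 10607 TPM at 96 h. Of 15 aldehyde dehydrogenases 5 were called lower, with ALDH3A1 far ahead of ALDH3A2 and ALDH3B1 (from 194 and 256 TPM to 84.2 and 131 TPM, and from 110.1 and 191 TPM to 26.6 and 88.5 TPM). Sterol synthesis and uptake genes had medians of -1.65 in replicate 1 and -0.48 in replicate 2. Of 26 measured, 24 were lower in replicate 1 and 20 in replicate 2. In 10 the fall was at least 1 in replicate 1, with a change under 0.5 in size in replicate 2. The one called was HMGCS1, an early enzyme of the pathway (237 and 191 TPM at 0 h against 28.9 and 54.7 TPM after 96 h). MVD, a later enzyme chosen after its values were seen, had no call (103 and 49.0 TPM at 0 h against 16.1 and 32.6 TPM after 96 h). The sterol element letters TCACNCCAC (GTGGNGTGA on the other strand) stood in 0.875% of the RefSeq promoters of 250 bases (GRCh38.p14) and in 1 of 19 matched sterol genes. Of 30 glycolysis and hypoxia genes 5 were called lower and 1 higher, with medians of -0.71 and -0.29 (-0.73 and -0.09 with median-of-ratios scaling). ADM, the peptide adrenomedullin, fell from 76.3 and 96.7 TPM to 5.24 and 14.4 TPM, and PFKFB3, a regulator of glycolysis, fell from 160.3 and 210.2 TPM to 63.2 and 61.4 TPM, while SLC2A3, a glucose transporter, rose from 40.4 and 48.7 TPM to 106 and 97.4 TPM. ALDH3A2 (adjusted p = 0.0721 by limma), ALDH3B1 (0.237) and SLC2A3 (0.162) were not called without the replicate block. SLC2A3 (0.0951) was not called with TPM as deposited. ALDH3B1 (0.0696), HMGCS1 (0.0601) and SLC2A3 (0.0705) were not called without 0 h replicate 1, ALDH3A2 (0.0659), ALDH3B1 (0.0647), PFKFB3 (0.0702) and SLC2A3 (0.159) without 0 h replicate 2, and ALDH3B1 (0.0567) and SLC2A3 (0.119) without 96 h replicate 1.

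Genes of DNA replication were lower in both replicates, all 41 of 41 measured, although 6 were called (medians -0.91 and -1.07). Of all 21216 genes tested 9058 were lower in replicate 1 and 14277 in replicate 2. The licensing factor CDC6 fell from 72.3 and 75.2 TPM to 17.8 and 22.8 TPM. The helicase subunits MCM5 and MCM2 fell from 93.9 and 102 TPM to 33.1 and 37.7 TPM and from 71.6 and 88.4 TPM to 23.3 and 36.1 TPM. ORC1, of the origin recognition complex, fell from 20.5 and 23.1 TPM to 6.86 and 8.86 TPM. The cyclin CCND3 fell from 133 and 178 TPM to 33.1 and 70.4 TPM. The 40 mitotic genes had no call at all by limma, and their medians were -0.43 and -1.25. Of them 39 were lower in replicate 1 and 40 in replicate 2. In 19 the fall was at least 1 in replicate 2, with a change under 0.5 in size in replicate 1. MKI67, a proliferation marker, measured 105 and 123 TPM at 0 h against 89.0 and 22.1 TPM after 96 h, and TOP2A, a topoisomerase chosen after its values were seen, 402 and 433 TPM at 0 h against 351 and 166 TPM after 96 h. The summed level of the mitotic genes was 4530 and 5598 TPM at 0 h, 1047 and 3509 TPM at 72 h, then 3279 and 2566 TPM at 96 h. Of these 3 times replicate 1 was lowest at 72 h and replicate 2 at 96 h. CDKN1A, a kinase inhibitor, was not called (106 and 58.6 TPM at 0 h against 142 and 65.7 TPM after 96 h). MCM2 (adjusted p = 0.086 by limma), ORC1 (0.0954) and CCND3 (0.0513) were not called without the replicate block. ORC1 (0.0592) was not called with TPM as deposited, ORC1 (0.0602) with a pseudocount of 0.1, CDC6 (0.0549), MCM5 (0.0655), MCM2 (0.0821) and ORC1 (0.111) with no filter beyond a value above 0, and ORC1 (0.0647) without the 36 h and 48 h libraries numbered 2. CDC6 (0.13), MCM5 (0.128), MCM2 (0.156) and ORC1 (0.218) were not called without 0 h replicate 1, CDC6 (0.1), MCM5 (0.15), MCM2 (0.177) and ORC1 (0.242) without 0 h replicate 2, CDC6 (0.0866), MCM5 (0.101), MCM2 (0.143) and ORC1 (0.163) without 96 h replicate 1, and CDC6 (0.0552), MCM5 (0.0676), MCM2 (0.0564) and ORC1 (0.11) without 96 h replicate 2.

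The E2F letters TTTNGCGC (GCGCNAAA on the other strand), which E2F factors bind before S-phase genes, stood in 1.54% of the RefSeq promoters, in 10 of 36 matched replication genes (27.8%), in 4 of 11 matched replication genes with a shared fall, in 0 of the 5 matched replication genes called lower and in 1 of 33 matched mitotic genes. They are shown for 3 of those 4, where runs of capitals longer than the motif are overlapping matches on both strands:
MCM6 (chr2:135876462-135876655, minus strand): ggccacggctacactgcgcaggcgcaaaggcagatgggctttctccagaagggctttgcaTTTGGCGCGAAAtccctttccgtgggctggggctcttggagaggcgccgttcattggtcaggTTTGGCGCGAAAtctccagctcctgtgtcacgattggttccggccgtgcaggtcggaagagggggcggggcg
E2F1 (chr20:33686386-33686465, minus strand): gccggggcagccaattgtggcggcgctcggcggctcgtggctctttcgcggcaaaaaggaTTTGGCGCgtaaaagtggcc
POLA2 (chr11:65261849-65261961, plus strand): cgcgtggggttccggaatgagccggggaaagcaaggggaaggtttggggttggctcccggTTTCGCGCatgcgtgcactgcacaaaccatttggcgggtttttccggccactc
These genes, chosen after their values were seen, had no call. MCM6, a helicase subunit, measured 63.9 and 69.6 TPM at 0 h against 22.0 and 29.7 TPM after 96 h (adjusted p = 0.0555 by limma). E2F1, an E2F factor itself, measured 30.1 and 37.5 TPM at 0 h against 10.9 and 16.1 TPM after 96 h (adjusted p = 0.0765 by limma). POLA2, a subunit of the primase complex, measured 28.9 and 35.5 TPM at 0 h against 13.2 and 15.5 TPM after 96 h (adjusted p = 0.055 by limma). All 3 were lower in both replicates. MCM6 (adjusted p = 0.0462 by limma) was called with median-of-ratios scaling, MCM6 (0.0457) and POLA2 (0.0425) with a filter of 5 TPM, MCM6 (0.0299) without the 36 h and 48 h libraries numbered 2, and MCM6 (0.0438) and POLA2 (0.0434) with centring by transcript length.

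Cytokine, growth factor and interferon genes contributed single members rather than whole lists. IL11, an interleukin that signals through gp130, rose from 53.7 and 22.6 TPM to 659 and 188 TPM (log2 change 3.30, SE 0.29, adjusted p = 9.0e-05 by limma). The EGF receptor ligands AREG and EREG fell from 46.2 and 48.3 TPM to 2.49 and 10.02 TPM and from 44.9 and 32.9 TPM to 5.52 and 12.2 TPM, whereas the ligand HBEGF rose from 3.01 and 1.20 TPM to 16.1 and 3.03 TPM. WNT5B, a Wnt ligand, rose from 2.45 and 1.16 TPM to 66.9 and 7.68 TPM, and the Wnt inhibitor DKK1 fell from 147 and 345 TPM to 18.5 and 40.4 TPM. IGFBP5, a binding protein of insulin-like growth factors, rose from 0.394 and 0.249 TPM to 20.4 and 5.17 TPM. IFI44L, an interferon-induced gene, went from 0.208 and 0.0207 TPM to 5.02 and 4.25 TPM. Of 33 measured interferon and antigen presentation genes, 3 were called higher and 3 lower (medians -0.14 and 0.20). CGB8, a chorionic gonadotropin beta gene whose near-identical copies may share reads, rose from 1.72 and 0.912 TPM to 28.2 and 14.7 TPM. NPC2, a lysosomal cholesterol carrier, rose from 213 and 136 TPM to 717 and 1122 TPM. HBEGF (adjusted p = 0.333 by limma), WNT5B (0.0679) and DKK1 (0.142) were not called without the replicate block, and AREG (0.06) without it and with median-of-ratios scaling. HBEGF (0.0951) was not called with TPM as deposited, AREG (0.134) with a pseudocount of 0.1, and AREG (0.0605), EREG (0.0526) and HBEGF (0.0783) with no filter beyond a value above 0. AREG (0.145), EREG (0.155) and HBEGF (0.182) were not called without 0 h replicate 1, AREG (0.0994), EREG (0.0822) and HBEGF (0.179) without 0 h replicate 2, and AREG (0.133), EREG (0.127) and HBEGF (0.192) without 96 h replicate 1.

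Housekeeping lists had few calls and differed between the replicates. Of 70 cytosolic ribosomal protein genes 35 were higher at 96 h in replicate 1 and 65 in replicate 2, with 1 called, RPL28. Of all 21216 genes tested 11909 and 6546 were higher. The ribosomal medians were -0.01 and 0.49. They were 0.03 and 0.14 with TPM as deposited, and -0.04 and 0.70 with median-of-ratios scaling. Of 40 nuclear genes of the respiratory chain none was higher in replicate 1 and 21 were in replicate 2 (medians -0.50 and 0.03). The medians were -0.45 and -0.32 with TPM as deposited, and -0.52 and 0.24 with median-of-ratios scaling. The 13 transcripts of mitochondrial DNA had medians of -0.05 in replicate 1 and -0.87 in replicate 2. The medians were -0.01 and -1.20 with TPM as deposited, and -0.07 and -0.66 with median-of-ratios scaling. At 72 h they were -0.35 and -0.68 against 0 h. The summed level was 18878 and 17690 TPM at 0 h, then 18443 and 15479 TPM at 96 h. RPL28 measured 968 and 755 TPM at 0 h against 1566 and 2067 TPM after 96 h. RPL28 (adjusted p = 0.0928 by limma) was not called without the replicate block. RPL28 (0.0511) was not called with no filter beyond a value above 0, and RPL28 (0.0538) with centring by transcript length. RPL28 (0.0983) was not called without 0 h replicate 1, RPL28 (0.15) without 0 h replicate 2, and RPL28 (0.111) without 96 h replicate 2.

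**Figure D2:**
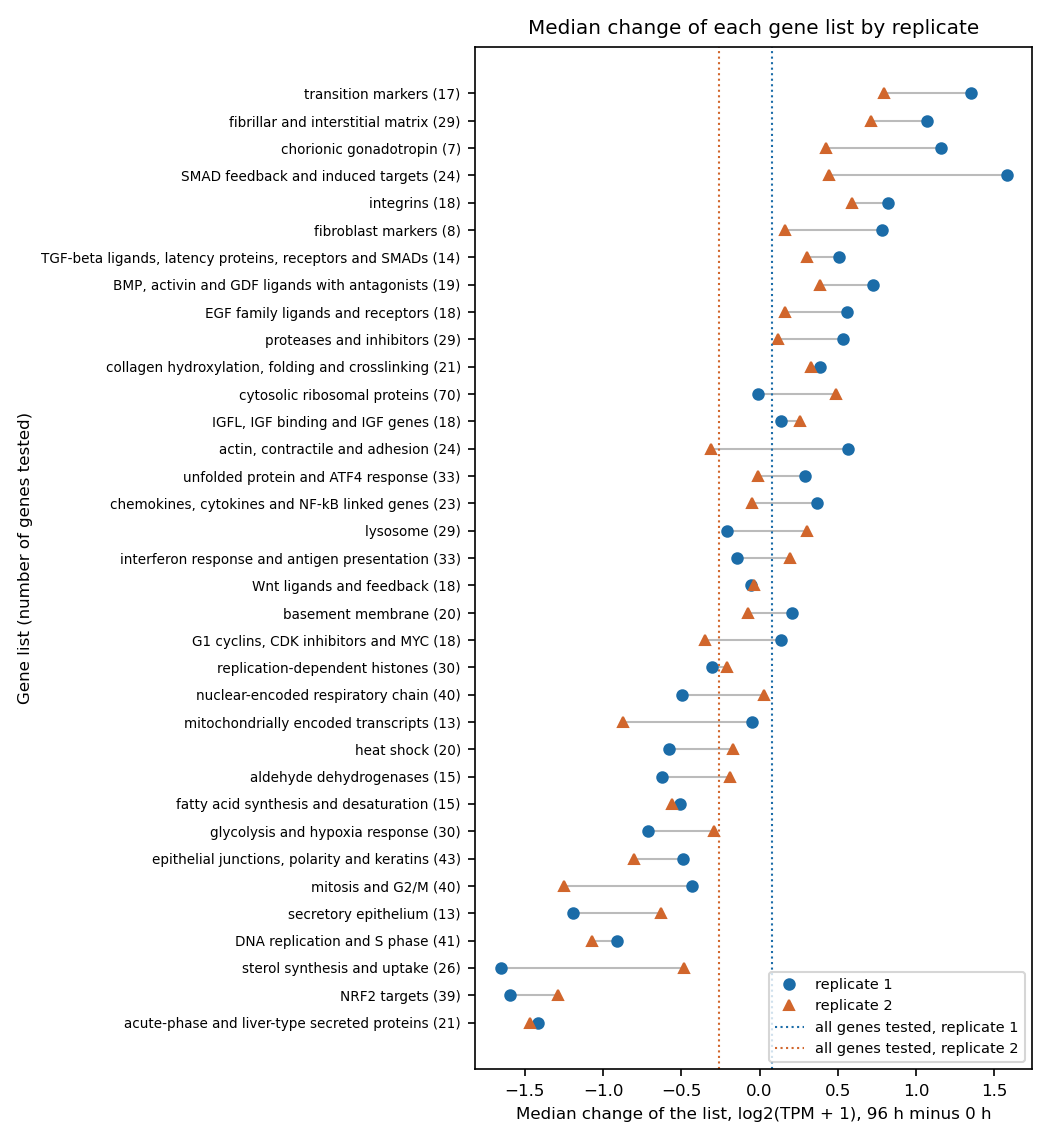
Median change from 0 h to 96 h of each gene list with at least 7 genes tested, in log2(TPM + 1), with circles for replicate 1 and triangles for replicate 2, and dotted lines at the medians of all genes tested (0.08 and -0.26). Interstitial matrix genes lie to the right in both replicates and NRF2 targets and acute-phase genes to the left, while SMAD targets, sterol genes and mitotic genes have their 2 symbols far apart.

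By a count without a test, changes seen in 1 replicate only were common. A rise of at least 1 in replicate 1 with a change under 0.5 in size in replicate 2 was found in 697 genes (3.29%), and the same for a fall in 306 (1.44%); the counts for replicate 2 were 164 (0.773%) and 1395 (6.58%). With each library centred by transcript length, an alternative chosen after the data were seen, they became 655, 362, 306 and 759. With median-of-ratios scaling they were 620, 370, 283 and 910, so the counts moved with the scaling. Levels were low: the median of the mean TPM was 1.962, 5.586, 3.655 and 3.366 for the 697, 306, 164 and 1395 genes. Each of these medians lay below that of all genes tested. Few of these genes were called at 96 h against 0 h: 6 of the 697, 7 of the 306, 4 of the 164 and 5 of the 1395. A further 129 genes changed by 1 or more in opposite directions.

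**Figure D3:**
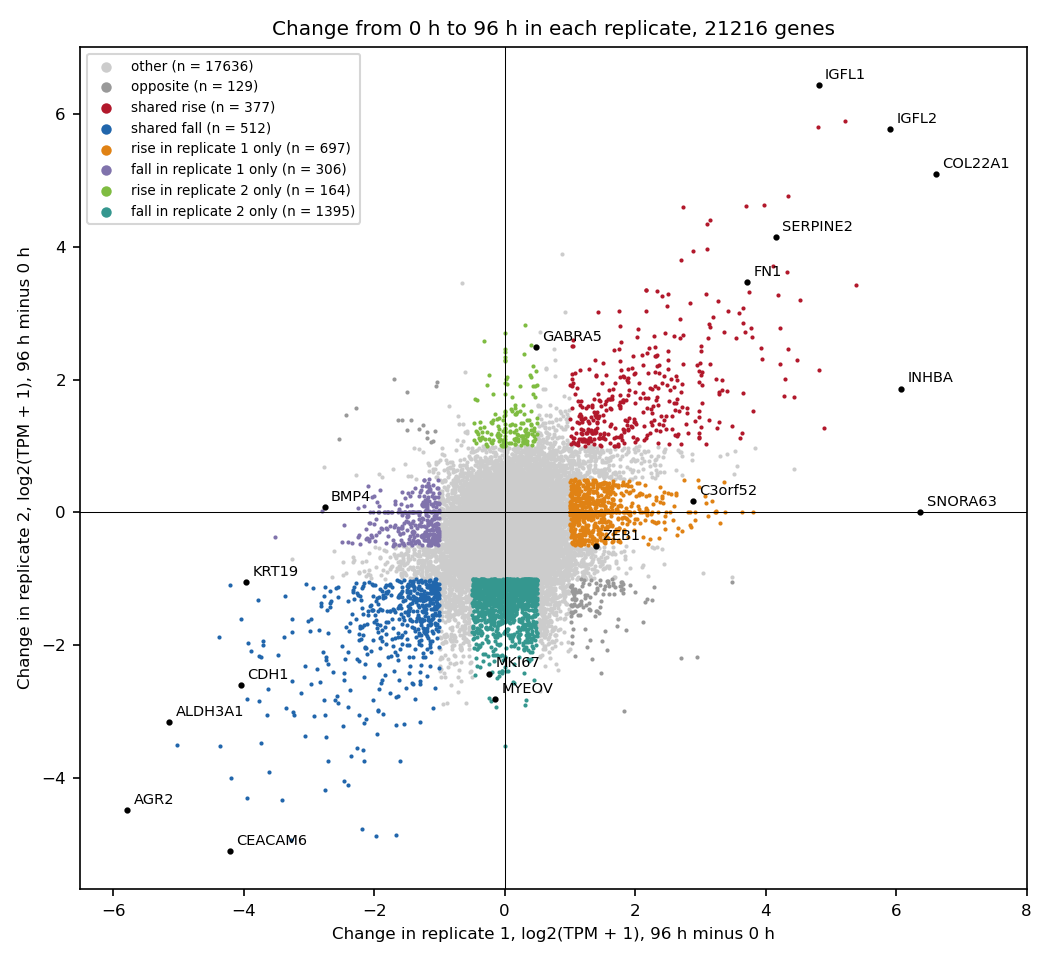
Change of each gene from 0 h to 96 h in replicate 1 (horizontal) and replicate 2 (vertical), in log2(TPM + 1), coloured by class, with named genes as black dots. IGFL2, COL22A1 and FN1 lie far out at the upper right and AGR2, CEACAM6 and ALDH3A1 at the lower left, while C3orf52 and ZEB1 lie near the horizontal axis and MKI67 and MYEOV along the vertical one.

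Changes in 1 replicate stood in several lists: 19 of 40 mitotic genes fell in replicate 2 only, and 10 of 26 sterol genes fell in replicate 1 only. In the list of feedback and induced targets of SMAD signalling, 6 of 24 rose in replicate 1 only. Of the 24 SMAD targets measured, 8 were called higher and 1 lower, and the medians were 1.58 and 0.44. At 72 h the medians against the same 0 h libraries were 1.70 and 1.15. PMEPA1, a feedback inhibitor of the pathway, rose in both replicates (152 and 50.4 TPM at 0 h against 839 and 334 TPM after 96 h), as did TGFBI, a secreted matrix protein (1476 and 648 TPM at 0 h against 5098 and 3833 TPM after 96 h), and CTGF, a matricellular protein, with a high level in replicate 1 (58.3 and 14.2 TPM at 0 h against 579 and 52.4 TPM after 96 h). SKIL, a repressor of SMADs, and JUNB, an AP-1 factor, were chosen after their values were seen and had a lower level at 96 h than at 72 h in replicate 2. SKIL was at 128 and 96.5 TPM at 0 h, 449 and 172 TPM at 72 h, then 491 and 96.8 TPM at 96 h, and JUNB at 97.1 and 51.4 TPM, 326 and 200.4 TPM and 255 and 54.0 TPM. SMAD7, an inhibitor of the receptor, was not called (34.0 and 17.1 TPM at 0 h against 68.6 and 26.5 TPM after 96 h), and SMAD6, its relative in BMP signalling, fell from 55.6 and 61.7 TPM to 23.4 and 24.2 TPM. The SMAD letters CAGACA, searched on both strands, stood in 13.6% of the RefSeq promoters of 250 bases (GRCh38.p14), in 2 of 20 matched SMAD targets and in 0 of the 8 called higher. SMAD7 (adjusted p = 0.0481 by limma), SKIL (0.00818) and JUNB (0.00394) were called without 96 h replicate 2. CTGF (adjusted p = 0.33 by limma) and SMAD6 (0.0591) were not called without the replicate block. CTGF (0.0558) and SMAD6 (0.0531) were not called with TPM as deposited, CTGF (0.0826) and SMAD6 (0.0801) with no filter beyond a value above 0, and SMAD6 (0.0507) without the 36 h and 48 h libraries numbered 2. CTGF (0.107) and SMAD6 (0.126) were not called without 0 h replicate 1, TGFBI (0.0659), CTGF (0.196) and SMAD6 (0.223) without 0 h replicate 2, CTGF (0.163) and SMAD6 (0.12) without 96 h replicate 1, and SMAD6 (0.0879) without 96 h replicate 2.

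**Figure D4:**
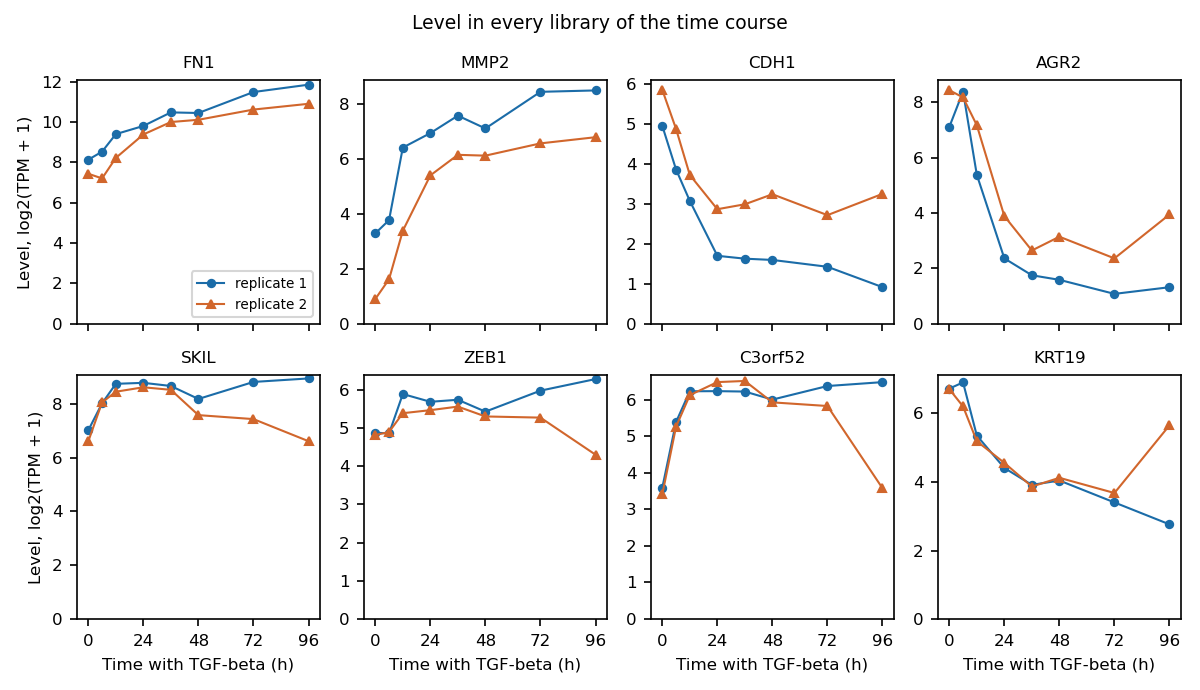
Level of 8 genes in all 16 libraries, as log2(TPM + 1) against the time with TGF-beta in hours, with circles for replicate 1 and triangles for replicate 2. FN1, MMP2, CDH1 and AGR2 are on the same side of 0 h in both replicates at 96 h, although AGR2 climbs after 72 h in replicate 2, whereas SKIL, ZEB1 and C3orf52 drop and KRT19 climbs between 72 h and 96 h in replicate 2 and not in replicate 1.

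The difference between the replicates at 96 h was tested against their mean difference at the other 7 times. By this test 3 genes were called (0.0141%), 2 higher in replicate 1 and 1 higher in replicate 2, and 2955 had an unadjusted p below 0.05. The test has little power: in simulated data it found 3 of 67 genes with a difference of 1 log2 unit. C3orf52 (chromosome 3, 112086335 to 112131004 on GRCh38), which encodes a membrane protein, was at 11.04 and 9.62 TPM at 0 h, 81.7 and 55.6 TPM at 72 h, then 88.0 and 10.9 TPM at 96 h (replicate 1 minus replicate 2 2.83, SE 0.29, adjusted p = 0.021 by limma). The non-coding transcript RP11-757F18.5, which lies just downstream of C3orf52 on the same strand and may share its reads, was at 1.99 and 2.90, 35.4 and 25.3 and 36.3 and 2.93 TPM at those times (adjusted p = 0.0226 by limma). KRT19, the keratin described above, was the gene higher in replicate 2, at 105 and 104, 9.57 and 11.8 and 5.79 and 49.3 TPM (-2.95, SE 0.32, adjusted p = 0.021 by limma). No call remained when the 36 h and 48 h libraries numbered 2 or both 0 h libraries were left out, and 295 and 129 genes were called with no filter beyond a value above 0.

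Some other genes with a small p in that test had the same order of levels. They were picked for a replicate difference at 96 h, so a gap there comes with the choice. RASGRP3, an activator of RAS proteins, was at 7.53 and 7.81 TPM at 0 h, 49.7 and 52.6 TPM at 72 h, then 60.8 and 6.54 TPM at 96 h (adjusted p = 0.0959 by limma for the replicate difference), and ABHD2, a lipase, at 75.4 and 83.1, 160.3 and 207 and 180.2 and 81.3 TPM. In the other direction BMP4, named above, was at 3.01 and 8.70 TPM at 72 h, and KITLG, the ligand of the KIT receptor, at 32.1 and 23.5, 3.45 and 5.30 and 3.74 and 23.8 TPM at 0, 72 and 96 h. In all of these 4 genes, replicate 2 at 96 h lay close to its 0 h level while replicate 1 did not. ALDH3A1, picked by the same rule as higher in replicate 2, stayed far below its 0 h level there. Its replicate 2 was at 1672 TPM at 0 h, 51.1 TPM at 72 h and 186 TPM at 96 h. Against 0 h, C3orf52 and RASGRP3 were not called (adjusted p = 0.178 and 0.36 by limma); without 96 h replicate 2 they gave 0.000134 and 0.00179. RP11-757F18.5 (adjusted p = 0.000188 by limma), ABHD2 (0.00179) and KITLG (0.00404) were called without 96 h replicate 2.

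Another set differed between replicates without such a return. In the list of the unfolded protein and ATF4 responses 6 of 33 genes rose in replicate 1 only, beside 3.29% of all genes. Higher at 96 h were 20 of 33 in replicate 1 and 15 of 33 in replicate 2. Of all 21216 genes tested 11909 and 6546 were higher. The medians were 0.29 and -0.01 (0.19 in replicate 2 with median-of-ratios scaling). The following 3 genes of the response to amino acid shortage were chosen after their values were seen, and were higher than at 0 h in replicate 1 only, at 72 h and at 96 h. ASNS, asparagine synthetase, was at 66.5 and 40.0 TPM at 0 h, 206 and 31.9 TPM at 72 h, then 210.2 and 29.2 TPM at 96 h. PHGDH, the entry enzyme of serine synthesis, was at 36.2 and 21.4, 130.0 and 17.8 and 131 and 17.8 TPM, and CHAC1, which degrades glutathione, at 2.10 and 1.68, 18.6 and 1.29 and 18.3 and 1.11 TPM. None was called at 96 h against 0 h; 1 of the 33 genes of the list was, DDIT4, an inhibitor of mTOR signalling (113 and 96.9 TPM at 0 h against 322 and 212 TPM after 96 h). DDIT4 (adjusted p = 0.281 by limma) was not called without the replicate block. DDIT4 (0.0538) was not called with TPM as deposited, and DDIT4 (0.0914) with no filter beyond a value above 0. DDIT4 (0.269) was not called without 0 h replicate 1, DDIT4 (0.0795) without 0 h replicate 2, DDIT4 (0.101) without 96 h replicate 1, and DDIT4 (0.124) without 96 h replicate 2. Among genes chosen by rule for a change in 1 replicate, SLFN5 was at 8.74 and 16.1 TPM at 0 h against 99.4 and 22.3 TPM after 96 h. PDK4, a kinase that restrains pyruvate oxidation, was at 39.4 and 83.6 TPM at 0 h against 2.53 and 64.5 TPM after 96 h. GABRA5, a GABA receptor subunit, was at 59.7 and 26.8 TPM at 0 h against 83.5 and 155 TPM after 96 h. MYEOV was at 24.5 and 40.0 TPM at 0 h against 22.1 and 4.85 TPM after 96 h. The first pair moved in replicate 1 and the second pair in replicate 2. SLFN5 (adjusted p = 0.0361 by limma) was called with centring by transcript length. SLFN5 (0.0226) was called without 0 h replicate 2, MYEOV (0.00389) without 96 h replicate 1, and SLFN5 (0.0417) and PDK4 (0.0415) without 96 h replicate 2.

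The replicates also differed by transcript length. Among protein-coding genes averaging 5 TPM or more, grouped by their longest GENCODE 29 transcript, the median change in replicate 1 went from -0.35 for transcripts of up to 1000 bases to 0.22 for those over 8000 bases, and in replicate 2 from 0.17 to -0.40. The groups held 268 and 971 genes. SKIL, ZEB1 and C3orf52 were low and KRT19 high in replicate 2 at 96 h, and the part of length in these values was not tested. Of the 1395 genes that fell in replicate 2 only, 38.4% were protein-coding, against 64.1% of all genes tested and 81.4% of those with a shared rise. With centring by length the shared rises numbered 477, the shared falls 407, and the calls 732 and 651.

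**Figure D5:**
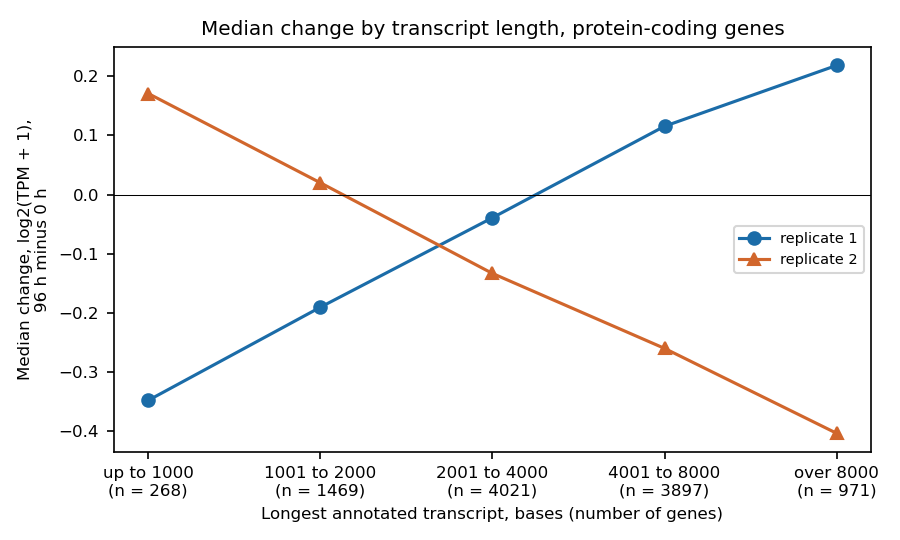
Median change from 0 h to 96 h, in log2(TPM + 1), of protein-coding genes averaging 5 TPM or more, by the length of their longest annotated transcript in bases, with circles for replicate 1 and triangles for replicate 2. The lines cross between the groups of 1001 to 2000 and 2001 to 4000 bases, with replicate 1 lower for short transcripts and replicate 2 lower for long ones.

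The last day of treatment added no called change. Between 72 h and 96 h, 0 of 21216 genes were called by limma (0.0%), and 340 (1.60%) had an unadjusted p below 0.05. Among matrix genes FN1 was at 2876 and 1574 TPM at 72 h and SERPINE2 at 1481 and 857 TPM, beside 3704 and 1919.9 and 1348 and 544 TPM at 96 h. CDH1 was at 1.69 and 5.60 TPM and then 0.890 and 8.55 TPM. The NRF2 targets had medians against 0 h of -1.58 and -1.53 at 72 h, beside -1.60 and -1.28 at 96 h. This test averages the replicates, which moved apart over that day in the genes described above.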

How the data were processed

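RNA was measured in 16 libraries of A549 cells, 2 at each of 8 times. The values are TPM that the authors deposited, 1 column per library, and Bowtie and RSEM are named per the submitters' processing notes; the build and annotation were not given in the sources used here, and libraries used a TruSeq kit per the labels' protocols. RN7SL1, RN7SL2, RN7SL3, RN7SK, RMRP and RPPH1 were dropped, each library was rescaled to a total of 1000000, and log2(TPM + 1) was taken for genes with at least 1 TPM in 2 or more of the 16 libraries. limma 3.58.1 (R 4.3.3, trended variance, two-sided, Benjamini-Hochberg over all genes tested, threshold 0.05) was fitted to all 16 libraries with time and replicate number, leaving 7 residual degrees of freedom, and 6 for the replicate difference. The fit was tested on simulated data with changes of 1, 2 and 3 log2 units. For 96 h against 0 h it recovered 27 of 67, 60 of 67 and 63 of 66 changed genes, with 6 false calls. For the replicate difference it recovered 3 of 67, 32 of 67 and 50 of 66, with 0 false calls.

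The replicate number was kept as a block because the comparison pairs libraries by number. Same-numbered libraries deviated together by over 0.1 in 27 of 28 pairs of times (lowest 0.0734, 0 h with 96 h 0.21), so 1 pair missed that mark. No 2 libraries were identical. The genes named were the 12 called genes in each direction with the largest smaller-of-2 replicate changes, up to 4 called members of each list in each direction, 20 fixed genes, and those extreme in the replicate difference or in 1 replicate; others are marked as chosen after their values were seen. Some genes that these rules name are not reported here. Members and lists were chosen with earlier results of these data known. Coordinates and transcript lengths are from GENCODE 29 on GRCh38, matched by gene identifier. Alternatives were other scalings, pseudocount, filters, no block, fewer libraries, each library left out, and, chosen after seeing the data, centring by transcript length and median-of-ratios scaling without the block.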

Additional observations from a re-analysis of the deposited data

How the results depend on the processing

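Depth is unknown for TPM, and 2 libraries a time limit the precision. No named gene that was called changed sign. The main counts were 502 higher and 648 lower, and the larger of the 2 changed with median-of-ratios scaling (660 and 586), centring by length (732 and 651) and without 96 h replicate 2; shared rises and falls, 377 and 512, became 441 and 426 and 477 and 407 with those 2 scalings. Without the replicate block, 199 and 228 genes were called, with median-of-ratios scaling and no block (chosen after seeing the data) 265 and 198, and with only the 4 libraries 0 and 0, where 2004 had an unadjusted p below 0.05 by limma. With TPM as deposited 255 were higher. Leaving out 1 library gave 201 to 643 higher and 214 to 513 lower: without 0 h replicate 1 the counts were 216 and 251, without 0 h replicate 2 201 and 214, without 96 h replicate 1 267 and 501, and without 96 h replicate 2 643 and 513; a lone library is then assumed to vary like the other times. The other settings stayed within 1.5 times. The replicate difference, 2 and 1 genes, became 1 and 0 with TPM as deposited, 295 and 129 with no filter, 0 and 0 without the 36 h and 48 h libraries numbered 2, and 0 and 0 without both 0 h libraries (2456 with an unadjusted p below 0.05). Shared rises numbered 196 with TPM as deposited and 751 with a pseudocount of 0.1, and shared falls 1031 with that pseudocount. Of 165 named calls, 86 were lost without the block, 26 with TPM as deposited, 37 with no filter, 67 and 70 without 0 h replicates 1 and 2, and 59 and 21 without 96 h replicates 1 and 2. Of 64 named genes not called, 19 were called without 96 h replicate 2, 6 without 96 h replicate 1 and 6 with centring by length. The fits on fewer libraries have fewer residual degrees of freedom; for the other settings the cause was not tested.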
